A study of Mus musculus with 6 samples.

Results

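The enzymes that write, copy and remove methyl groups on cytosine were examined in fetal liver (FL) of Pogz-/- and Pogz+/+ mouse embryos. The list holds 9 genes: the DNA methyltransferases Dnmt1, Dnmt3a and Dnmt3b, the maintenance partner Uhrf1, the dioxygenases Tet1, Tet2 and Tet3, and the glycosylases Tdg and Mbd4. A probe set, the unit of measurement on these arrays, was taken when it was annotated to exactly 1 gene and that gene was on the list, and the brightest probe set led for each gene. By this rule 8 of the 9 genes had a probe set of their own, 22 probe sets in all, among 18193 genes and 45037 probe sets tested. Genes entered the list by function, while the brightest probe set was that with the highest mean level over these 6 arrays.

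RNA from 3 Pogz-/- and 3 Pogz+/+ fetal livers at E14.5 was hybridised to 1 expression array each. Both genotypes were on a C57BL/6 background, to which the line had been backcrossed for more than 10 generations. In Pogz-/- embryos the 3′ exons of Pogz, which encode the CENPB and DDE domains of this zinc finger protein, had been removed through the germline with β-actin-cre, so every cell of the embryo carried the deletion. The livers were strained to a suspension of whole FL, in which erythroid cells are mixed with progenitors, other blood cells and hepatoblasts, so fewer cells of a type and less RNA per cell cannot be told apart. No DNA methylation was measured.

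Methylation of cytosine at CpG sites is laid down by DNMT3A and DNMT3B. After each round of replication UHRF1 recognises the hemimethylated site and recruits DNMT1, which copies the mark to the new strand. TET enzymes oxidise the methylated base, and the glycosylase TDG removes oxidised forms so that base excision repair can restore cytosine. MBD4 removes thymine that arises when a methylated cytosine is deaminated. Methylation of CpG-rich promoters keeps a set of germline genes silent in somatic tissue, and erythroid maturation in FL is known for a genome-wide loss of methylation.

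The array of Pogz+/+ replicate 1 stood apart. Its correlation with the other 5 arrays lay between 0.79 and 0.81, its β-actin 3′ to 5′ signal ratio, a sign of RNA integrity, was 52.3, and that of Gapdh was 15.3. The β-actin ratios were 3.72 to 4.09 in Pogz-/- livers, against 5.50 and 6.63 in the other Pogz+/+ livers, so the ratio also separated the genotypes without that array. By Xist, Pogz-/- replicates 1 and 2 and Pogz+/+ replicate 3 were female and the others male. Pogz itself had 4 probe sets, none of which passed the test. On the brightest it measured 9.16, 9.22 and 9.33 in Pogz-/- livers, against 9.17, 9.03 and 8.95 in Pogz+/+ livers, on the log2 scale. Of its 4 probe sets 3 had a difference above 0 and 1 below. On 1454827_at it measured 6.04, 5.94 and 5.92 in Pogz-/- livers, against 3.56, 4.98 and 2.84 in Pogz+/+ livers, and on 1457748_at the Pogz-/- arrays were also all above, with a difference of 1.47. Whether any of them falls in the removed exons was not stated, so they do not check the genotypes, which are those of the labels. All levels below are log2 signals and all differences are Pogz-/- minus Pogz+/+ on the log2 scale. Differences are over 6 arrays unless stated, and many are given again without Pogz+/+ replicate 1.

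None of the 8 enzyme genes differed between Pogz-/- and Pogz+/+ livers at an adjusted p under 0.05, over 6 arrays or without Pogz+/+ replicate 1. Their adjusted p-values (limma, Benjamini-Hochberg over all genes) ranged from 0.198 to 0.927 over 6 arrays and from 0.0782 to 0.734 without that replicate. Few genes of any kind were called over 6 arrays: 0.0989% of all genes were called higher and 0.0220% lower. These shares were 2.41% and 2.07% without Pogz+/+ replicate 1. At an unadjusted p under 0.05, 1 enzyme gene was higher and 2 were lower, beside 7.15% of all genes higher and 10.6% lower. In 2 of the 8 genes all Pogz-/- arrays lay above all Pogz+/+ arrays, and in 3 all lay below. Over all genes these shares were 10.8% and 16.3%. The median difference of the 8 genes was 0.20, against -0.17 over all genes.

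**Figure D1:**
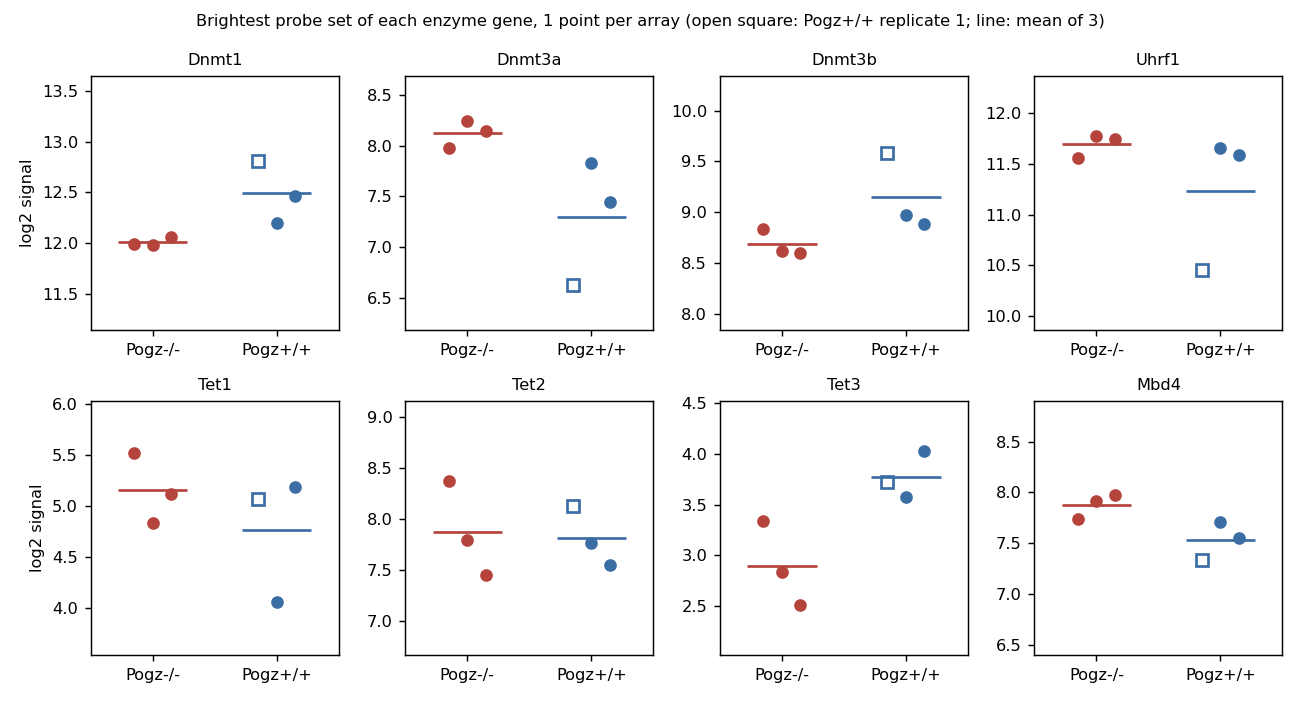
Log2 signal (y axis) of the brightest probe set of 8 enzyme genes in 3 Pogz-/- and 3 Pogz+/+ livers, 1 point per array, with the mean of each genotype as a line. Pogz+/+ replicate 1, drawn as an open square, lay outside the range of the other 5 arrays for 5 of the 8 genes, and the genotypes overlapped for Uhrf1, Tet1 and Tet2.

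Dnmt1, the maintenance methyltransferase, measured 12.00, 11.98 and 12.06 in Pogz-/- livers, against 12.81, 12.20 and 12.46 in Pogz+/+ livers. The 3 Pogz-/- arrays lay close together and below every Pogz+/+ array. The difference was -0.48 (SE 0.17, 95% confidence interval -0.86 to -0.10, adjusted p = 0.208). Without Pogz+/+ replicate 1 it was -0.32 (SE 0.09, interval -0.52 to -0.12, adjusted p = 0.0782), which still missed the threshold. The other Dnmt1 probe sets did not show 1 direction. Probe set 1447877_x_at measured 10.76, 10.80 and 10.92 in Pogz-/- livers, against 11.83, 11.10 and 11.31 in Pogz+/+ livers, with all Pogz-/- arrays below. Probe set 1422946_a_at measured 11.42, 11.35 and 11.42 in Pogz-/- livers, against 11.12, 11.33 and 11.55 in Pogz+/+ livers, and there the genotypes overlapped.

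The 2 Dnmt1 probe sets that were lower have names ending in _x_at, a suffix given where some probes match other sequences too. Among all probe sets at least as bright as the dimmest of Dnmt1, 84.9% of the 299 with this suffix had a difference below 0, with a median of -0.47. Of the 306 with the plain suffix _at, 48.7% had a difference below 0, with a median of 0.01. Between them lay the 345 with _a_at, the suffix of the third Dnmt1 probe set (69.6%, median -0.25), and the 113 with _s_at (63.7%, median -0.20). Without Pogz+/+ replicate 1 the medians were -0.29 for _x_at, -0.18 for _a_at, -0.14 for _s_at and -0.07 for _at. This split by suffix was drawn after the Dnmt1 values were seen, and its part in the Dnmt1 result was not tested.

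Uhrf1, which brings DNMT1 to replicated DNA, measured 11.56, 11.77 and 11.74 in Pogz-/- livers, against 10.46, 11.65 and 11.59 in Pogz+/+ livers. Pogz+/+ replicate 1 was the single low array, and the other 5 lay within a narrow band. The difference of 0.46 (SE 0.28, interval -0.16 to 1.07, adjusted p = 0.401) was 0.07 without that array (SE 0.09, interval -0.13 to 0.27, adjusted p = 0.734). Its second probe set, 1415811_at, differed by -0.09 over 6 arrays. Dnmt1 and Uhrf1, the pair that copies methylation at replication, therefore had differences of opposite sign on their brightest probe sets, and neither was called.

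Dnmt3a, a de novo methyltransferase active in blood stem and progenitor cells, was the member with the lowest adjusted p over 6 arrays. It measured 7.98, 8.24 and 8.15 in Pogz-/- livers, against 6.63, 7.83 and 7.44 in Pogz+/+ livers. All Pogz-/- arrays lay above all Pogz+/+ arrays, by 0.15 at the closest. The difference was 0.82 (SE 0.28, interval 0.19 to 1.45, adjusted p = 0.198), or 1.77-fold, past the 1.5-fold cutoff of the study's methods but not past the test. It was 0.49 without Pogz+/+ replicate 1 (SE 0.17, adjusted p = 0.152). The other 4 Dnmt3a probe sets all overlapped between genotypes, with differences of 0.15 to 0.30 for 3 of them. The dimmest, 1423064_at, measured 5.59, 5.78 and 6.16 in Pogz-/- livers, against 2.12, 6.38 and 6.09 in Pogz+/+ livers, and its difference of 0.98 became -0.39 without the one low array.

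Dnmt3b, the other de novo enzyme, measured 8.83, 8.62 and 8.60 in Pogz-/- livers, against 9.58, 8.97 and 8.89 in Pogz+/+ livers. The Pogz-/- arrays were all below, the highest of them 0.055 under the lowest Pogz+/+ array. The difference was -0.46 (SE 0.21, interval -0.92 to -0.0049, adjusted p = 0.279), and -0.25 without Pogz+/+ replicate 1 (adjusted p = 0.344). Its second probe set, 1418351_a_at, overlapped between genotypes with a difference of 0.15.

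Tet2, the TET enzyme best known in blood progenitors, measured 8.37, 7.79 and 7.45 in Pogz-/- livers, against 8.13, 7.77 and 7.55 in Pogz+/+ livers. The ranges overlapped almost fully, and the difference was 0.06 (SE 0.26, interval -0.52 to 0.63, adjusted p = 0.927). It was 0.22 on leaving out Pogz+/+ replicate 1, also not called. A second Tet2 probe set, 1455300_at, differed by 0.56 over 6 arrays and by 0.73 without that replicate, and neither passed the test.

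Tet1 and Tet3 were dim. Tet1 on its brightest probe set measured 5.52, 4.83 and 5.12 in Pogz-/- livers, against 5.07, 4.05 and 5.19 in Pogz+/+ livers, near the median signal of all probe sets, which was 4.91. Its difference of 0.39 had an interval of -0.79 to 1.57. The other 3 Tet1 probe sets lay below that median signal and differed by -0.78 to -1.17, with intervals that all contained 0. Tet3 had a single probe set, which measured 3.34, 2.84 and 2.52 in Pogz-/- livers, against 3.72, 3.58 and 4.03 in Pogz+/+ livers. All Pogz-/- arrays were lower, but at this signal the interval of the difference of -0.88 ran from -2.67 to 0.92 (adjusted p = 0.588).

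Mbd4, the thymine glycosylase with a methyl-CpG binding domain, measured 7.74, 7.91 and 7.97 in Pogz-/- livers, against 7.33, 7.71 and 7.55 in Pogz+/+ livers. The closest arrays of the 2 genotypes were 0.03 apart, with the Pogz-/- arrays above. The difference was 0.34 (SE 0.19, interval -0.09 to 0.77, adjusted p = 0.370). Probe set 1457708_at of the same gene measured 7.15, 7.18 and 7.51 in Pogz-/- livers, against 8.31, 7.72 and 7.83 in Pogz+/+ livers, so there every Pogz-/- array was lower. Its difference was -0.68 (adjusted p = 0.232 over all probe sets). The remaining Mbd4 probe set, 1441079_at, differed by -0.61, and by -0.79 without Pogz+/+ replicate 1, and was not called. Tdg, the glycosylase of the oxidised bases, was present only on 3 probe sets that also name the pseudogenes Tdg-ps and Tdg-ps2, so by the rule no level is ascribed to Tdg alone. The brightest of the shared probe sets, 1435715_x_at, measured 9.84, 9.87 and 10.02 in Pogz-/- livers, against 10.41, 10.05 and 10.13 in Pogz+/+ livers (adjusted p = 0.411). The other shared probe sets went both ways. On 1416790_a_at the difference was -0.43, and on 1448462_at, where the genotypes overlapped, it was 0.10.

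None of the 22 probe sets was called in either analysis, beside 0.0311% of all probe sets called higher and 0.00666% lower over 6 arrays, and 1.45% and 1.22% without Pogz+/+ replicate 1. All Pogz-/- arrays lay above all Pogz+/+ arrays in 2 of the 22 and below in 5, where the shares over all probe sets were 9.10% and 15.8%. In 5 of the 7 genes with several probe sets, these had differences of both signs. Pogz+/+ replicate 1 lay outside the other 5 arrays in 12 of the 22. In 14 of the 22 the difference was closer to 0 without it.

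**Figure D2:**
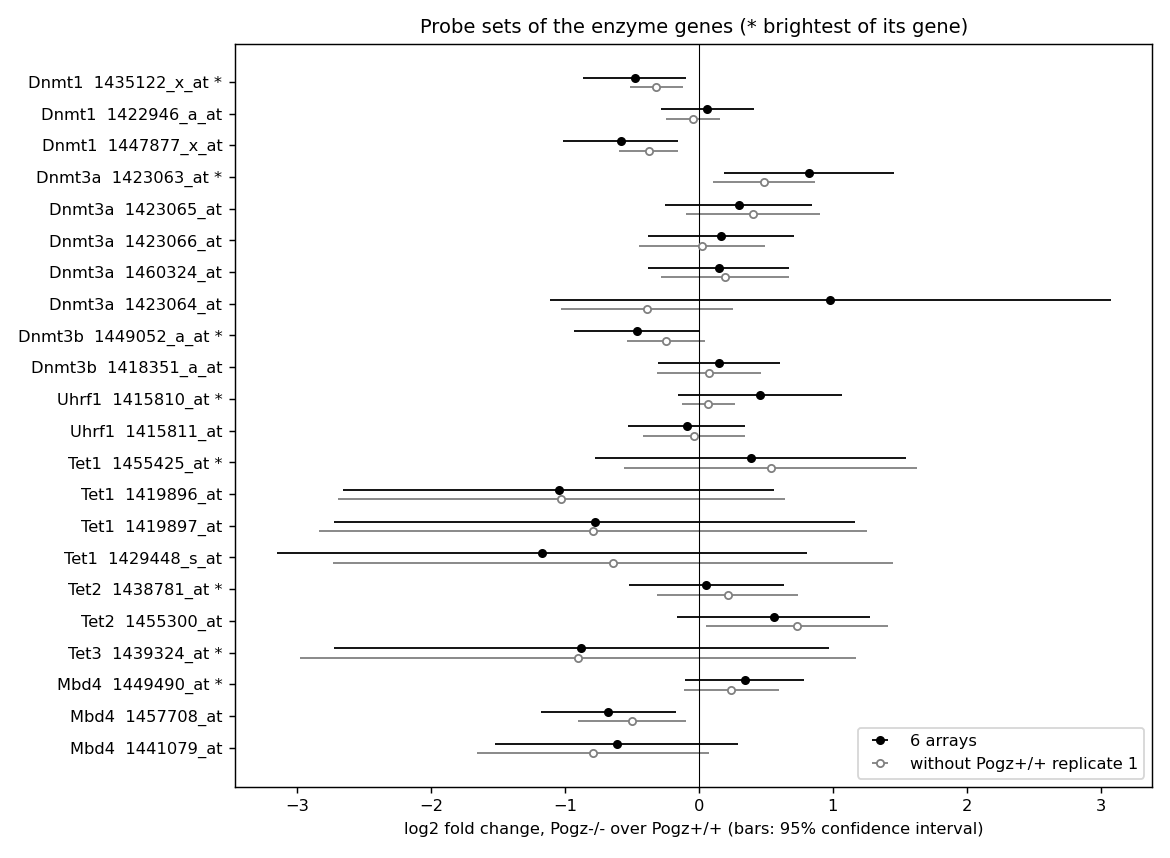
Log2 fold change, Pogz-/- over Pogz+/+ (x axis), of all 22 probe sets of the enzyme genes (rows), with 95% confidence intervals as bars, over 6 arrays (filled) and without Pogz+/+ replicate 1 (open). Probe sets of Dnmt1, Dnmt3b, Uhrf1, Tet1 and Mbd4 lie on both sides of 0 over 6 arrays.

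Calls among the enzyme genes changed with 1 scaling of the arrays. The deposited values share 1 trimmed mean, and on them the median difference of all genes was -0.17. With each array centred on its median it was 0.29, and 0.18 when Pogz+/+ replicate 1 was also left out. In that last setting 2 of the 8 genes passed the test, Dnmt3a with 0.76 (adjusted p = 0.0129) and Uhrf1 with 0.34 (adjusted p = 0.0462), while 10.1% of all genes were called higher. On probe sets 1 of 22 was called higher there, beside 6.14% of all. With quantile normalization instead, none of the 8 genes passed. Over the 17 settings tried the difference of Dnmt1 ranged from -0.63 to -0.02 and that of Dnmt3a from 0.43 to 1.28. Several settings change only the variance or the genes tested, so their differences equal the main ones. All but the means of probe sets read the brightest probe set alone. Other probe sets differed in sign, with 1422946_a_at of Dnmt1 at 0.06 and 1423064_at of Dnmt3a at -0.39 without Pogz+/+ replicate 1. The ranges are therefore no test of direction.

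The mean level of the erasers (Tet1, Tet2, Tet3 and Mbd4) minus that of the writers and Uhrf1 does not change when an array is rescaled. It was -3.85, -4.31 and -4.37 in Pogz-/- livers, against -3.81, -4.39 and -4.02 in Pogz+/+ livers. The means were -4.18 ± 0.28 and -4.07 ± 0.29 (SD, n = 3 each), and their difference of -0.11 was smaller than either SD.

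Partners of the enzymes showed few calls. None of the 10 measured cofactors of DNA methylation passed the test in either analysis. Cdca7, which with the remodeller HELLS gives DNMT1 access to heterochromatin, measured 8.33, 8.59 and 8.56 in Pogz-/- livers, against 6.81, 8.00 and 8.20 in Pogz+/+ livers, and Hells differed by 0.25. Uhrf2, the paralogue of Uhrf1, measured 9.09, 8.80 and 9.02 in Pogz-/- livers, against 6.65, 8.70 and 8.67 in Pogz+/+ livers. In both genes Pogz+/+ replicate 1 was the lowest array, and the differences of 0.82 and 0.97 were 0.39 and 0.29 without it. None of 11 readers of methylated or unmethylated CpG was called, nor any of 12 genes for the supply of S-adenosylmethionine, the methyl donor, and of the TET co-substrate. Mbd3, a subunit of the NuRD complex, differed by 0.63 (adjusted p = 0.310) and Idh1, which makes the co-substrate, by 0.57 (adjusted p = 0.195). Of the readers 8 had a difference above 0 and 3 below, among them Cxxc4 (-1.48) and Cxxc5 (-0.44). Of the supply genes 8 were above and 4 below, among them Shmt1 (-0.65), Shmt2 (-0.50) and D2hgdh (-0.46). Of the cofactors 6 were above and 4 below, among them Usp7 (-0.24). Without Pogz+/+ replicate 1 the differences were 0.27 for Mbd3, 0.49 for Idh1 and 0.07 for Hells.

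Of 15 base excision repair genes none was called over 6 arrays. Without Pogz+/+ replicate 1, 1 was called higher, beside 2.41% of all genes. This was Polb, the DNA polymerase that fills the gap left by a glycosylase. It measured 9.41, 9.02 and 9.14 in Pogz-/- livers, against 8.58, 8.54 and 8.48 in Pogz+/+ livers, so the genotypes were well apart. The difference was 0.65 over 6 arrays (adjusted p = 0.124) and 0.68 without the replicate (adjusted p = 0.0186). Parp1, a sensor of strand breaks, differed by -0.45 (adjusted p = 0.233), and by 0.00 on median-centred arrays.

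Dnmt1 transcript is high in dividing cells, so replication genes and cell type markers are given beside it. Of 24 genes of DNA replication in S phase none was called over 6 arrays, 9 had a difference above 0 and 15 below, and the median was -0.09, against -0.17 over all genes. Without Pogz+/+ replicate 1, 7 were lower and none higher, beside 2.07% of all genes lower and 2.41% higher. Among the 7 were Mcm4, a subunit of the replicative helicase, at -0.64 (adjusted p = 0.00501), and Rrm2, a subunit of ribonucleotide reductase, at -0.49 (adjusted p = 0.00232). Fen1, the flap endonuclease, differed by -0.50 and Prim1, the primase, by -0.44, also without that replicate. Of these 7, 3 were read by an _x_at probe set. When the probe sets of a gene were averaged over 6 arrays, Mcm4 differed by -0.34, Fen1 by -0.16, Prim1 by -0.23 and Rrm2 by 0.085, and none was called. With median centring in place of the deposited scale, and without Pogz+/+ replicate 1, none of the 24 was lower and 3 were higher. In that setting 0.550% of all genes were called lower and 10.1% higher. On the deposited scale the list's median was -0.17 without the replicate, against -0.10 over all genes.

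Among erythroid markers all 7 measured had a difference below 0, and 4 were called lower without Pogz+/+ replicate 1. In that setting 2.07% of all genes were called lower and 2.41% higher, the shares to set beside the marker calls below. The mean level of the 7 was 10.9 to 11.1 in Pogz-/- livers, against 11.5 to 11.8 in Pogz+/+ livers. Of the 7, 6 were above the median signal of all probe sets. Slc4a1, the anion exchanger of red cells, differed by -0.69 (adjusted p = 0.000902) and Klf1, an erythroid transcription factor, by -0.39 (adjusted p = 0.0177) without it, while Klf1 was at 0.04 over 6 median-centred arrays. On median-centred arrays without the replicate 1 of the 7 was lower, beside 0.550% of all genes. Of 5 hepatoblast markers 4 had a difference below 0, and Afp, the fetal serum protein, was lower without the replicate (-0.66, adjusted p = 0.00879). All 4 B cell and all 4 megakaryocyte markers also had a difference below 0, with none called. Their medians were -1.01 and -0.16, against -0.17 over all genes. Below 0 were also 4 of 5 T and NK cell markers (median -1.36), 3 of 4 of endothelium (-0.53) and 4 of 6 of macrophages (-0.04). Only 1 of the T and NK cell markers reached the median signal, and Nkg7 of that list was higher without the replicate (1.17, adjusted p = 0.0161). Of 6 progenitor markers 3 had a difference above 0 and 3 below, with a median of -0.04. Kit, the stem cell factor receptor, and Myb, a progenitor transcription factor, were higher without the replicate, Kit by 0.91 (adjusted p = 0.00421) and Myb by 0.45 (adjusted p = 0.0165), while Gata2 differed by -0.43 and Meis1 by -0.47. With averaged probe sets over 6 arrays the difference of Kit was 0.59, against 1.28 on its brightest. The mean of the 6 was 7.72 to 7.84 in Pogz-/- livers, against 7.52 to 7.77 in Pogz+/+ livers. Camp, a granule peptide of neutrophils, was higher by 1.17 over 6 arrays (adjusted p = 0.0290). It was the 1 called of 6 granulocyte markers, beside 0.0989% of all genes called higher. Without the replicate 3 of the 6 were higher, beside 2.41% of all genes. The call of Camp was lost with median centring (adjusted p = 0.121), with plain eBayes (adjusted p = 0.297), with sex as covariate (adjusted p = 0.140), with the methods' t-test (adjusted p = 0.210) and on leaving out any 1 of the Pogz-/- arrays or Pogz+/+ replicate 3. The mean of these 6 was 10.7 to 10.8 in Pogz-/- livers, against 10.2 to 10.4 in Pogz+/+ livers. The part of these shifts in the levels of Dnmt1 and Dnmt3a was not tested.

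Germline genes whose promoters are methylated in somatic tissue depend on the enzymes for their silence. Of 30 such genes measured, 1 was higher in Pogz-/- livers and none lower, over 6 arrays and without Pogz+/+ replicate 1 alike. Of all genes 0.0989% were called higher over 6 arrays and 2.41% without the replicate. The list was drawn up with earlier results of these arrays known, and the gene called had been picked there for its rise. This count is a description only. The median difference of the 30 was -0.06 over 6 arrays and 0.21 without the replicate, where all genes had -0.17 and -0.10. Over 6 arrays 13 of the 30 had a difference above 0 and 17 below. Among those below were Tuba3b (-2.17), Rhox6 (-1.91) and Rhox9 (-2.22), none of them called. Only 4 of the 30 reached the median signal of all probe sets, and the level of the array background was not measured here. Dazl, an RNA-binding protein of germ cells, measured 2.99, 4.05 and 3.66 in Pogz-/- livers, against 2.39, 4.31 and 1.89 in Pogz+/+ livers, and the genotypes overlapped. Ddx4, the germ cell helicase Vasa, measured 4.55, 4.40 and 4.30 in Pogz-/- livers, against 2.05, 3.88 and 3.69 in Pogz+/+ livers (adjusted p = 0.445).

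The gene that was called is Slc25a31, an adenine nucleotide carrier of sperm mitochondria. It measured 6.70, 7.27 and 7.20 in Pogz-/- livers, against 1.99, 3.66 and 4.06 in Pogz+/+ livers, a difference of 3.82 that lies at the threshold over 6 arrays (adjusted p = 0.04995). Without Pogz+/+ replicate 1 the difference was 3.20 (adjusted p = 0.000844). The call over 6 arrays was lost with quantile normalization, median centring, plain eBayes, sex as covariate, a filter on dim probe sets, means of probe sets and the methods' t-test, and on leaving out any 1 of the other 5 arrays, with adjusted p-values of 0.0642 to 0.390. It also stands in a second list, of 6 testis genes that had been picked for their rise on these same arrays and so give a description only. Rpl39l, a ribosomal protein gene of the testis, measured 9.74, 9.10 and 8.66 in Pogz-/- livers, against 6.80, 6.74 and 6.52 in Pogz+/+ livers. Fmr1nb, a cancer and testis antigen, measured 8.95, 9.03 and 9.41 in Pogz-/- livers, against 4.10, 6.37 and 5.61 in Pogz+/+ livers. Every Pogz-/- array lay above every Pogz+/+ array in all 6 genes, a pattern by which they had been chosen. Over 6 arrays 4 of the 6 were called, and 5 without Pogz+/+ replicate 1. Trap1a, an X-linked tumour antigen gene, measured 10.06, 10.04 and 9.97 in Pogz-/- livers, against 2.69, 5.81 and 1.84 in Pogz+/+ livers (adjusted p = 0.0212, and 0.164 without Pogz+/+ replicate 1). Where a Pogz+/+ level lies this far below the median signal, the size of a difference is uncertain. On the same arrays the differences of the 8 enzyme genes lay between -0.88 and 0.82.

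**Figure D3:**
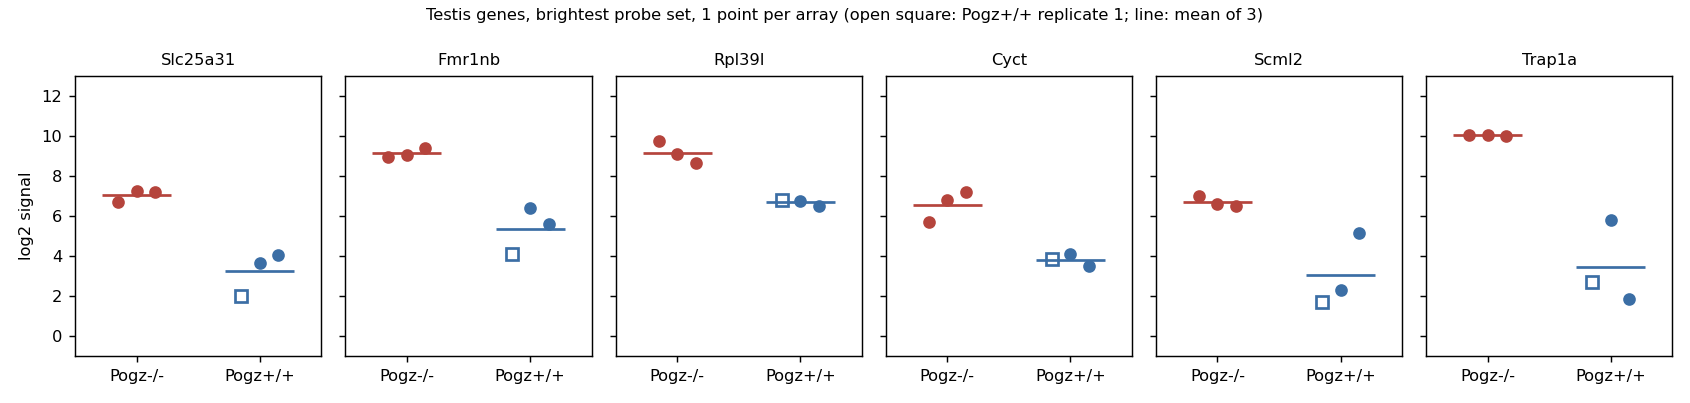
Log2 signal (y axis) of 6 testis genes, brightest probe set, in 3 Pogz-/- and 3 Pogz+/+ livers, 1 point per array, with the mean of each genotype as a line and Pogz+/+ replicate 1 as an open square. Slc25a31 lies between 6.70 and 7.27 in Pogz-/- livers and between 1.99 and 4.06 in Pogz+/+ livers.

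The starts of some of these genes can be set beside the CpG sites on which the enzymes act. Below are the 250 bases before the start of Slc25a31 (chr3:40708621-40708870, plus strand) and Rpl39l (chr16:10169978-10170227, plus strand). Both were called higher in Pogz-/- livers and both stand in the list picked on these arrays. With them are those of Ddx4 (chr13:112652311-112652560, minus strand), a germline gene that was dim and not called. Also shown is the stretch before a start of Dnmt1 (chr9:20952624-20952873, minus strand), a writer of the mark. This Dnmt1 stretch lies downstream of the other Dnmt1 starts in the table, the nearest with its stretch at chr9:20952980-20953229. It therefore falls within transcripts from those starts, and its CpG are not read as promoter content. They are RefSeq sequences on GRCm38.p6, written from 5′ to 3′ with each CpG in capitals.
Slc25a31: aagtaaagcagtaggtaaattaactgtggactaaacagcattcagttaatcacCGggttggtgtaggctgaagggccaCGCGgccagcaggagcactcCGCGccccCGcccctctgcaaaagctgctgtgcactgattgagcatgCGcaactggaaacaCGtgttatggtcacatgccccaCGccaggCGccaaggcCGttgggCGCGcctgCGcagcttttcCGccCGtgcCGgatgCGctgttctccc
Rpl39l: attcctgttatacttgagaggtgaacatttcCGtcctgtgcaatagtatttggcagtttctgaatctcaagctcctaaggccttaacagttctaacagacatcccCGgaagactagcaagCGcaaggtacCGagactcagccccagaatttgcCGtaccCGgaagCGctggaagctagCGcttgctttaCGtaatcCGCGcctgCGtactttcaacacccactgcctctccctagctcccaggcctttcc
Ddx4: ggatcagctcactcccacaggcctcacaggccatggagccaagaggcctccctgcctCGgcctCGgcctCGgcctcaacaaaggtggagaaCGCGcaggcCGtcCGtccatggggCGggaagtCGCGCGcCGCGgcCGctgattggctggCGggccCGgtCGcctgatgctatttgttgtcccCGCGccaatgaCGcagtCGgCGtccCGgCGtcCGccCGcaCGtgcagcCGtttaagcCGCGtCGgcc
Dnmt1: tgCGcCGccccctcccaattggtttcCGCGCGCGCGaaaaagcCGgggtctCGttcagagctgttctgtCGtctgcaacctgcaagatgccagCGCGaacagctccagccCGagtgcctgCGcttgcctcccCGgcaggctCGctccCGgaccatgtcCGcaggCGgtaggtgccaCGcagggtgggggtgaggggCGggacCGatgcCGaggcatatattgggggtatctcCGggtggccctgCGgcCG

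Slc25a31 had 18 CpG, Rpl39l 12, Ddx4 31 and this Dnmt1 start 26, while 2 further Dnmt1 starts in the table had 7 and 2. The stretch with 26 lies downstream of both further starts. Over all 32851 starts of the table the median was 6. The 14 starts of the 9 enzyme genes had a median of 20 and 13 of them were above 6, with 51 at Tet2. The 35 starts found for 29 germline genes had a median of 15, and 30 of them were above 6. The 6 testis genes had 6 to 18, with a median of 7. The starts of the germline genes ranged from 3 to 31, which includes the called Slc25a31 and the dim Ddx4.

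**Figure D4:**
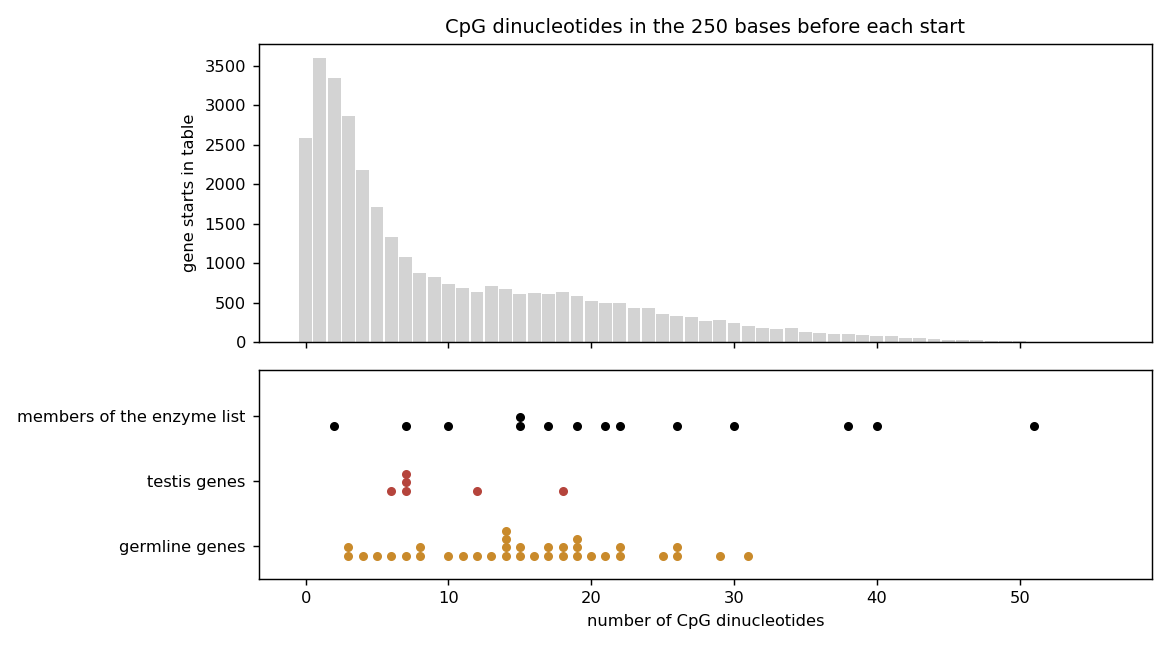
Number of CpG dinucleotides in the 250 bases before a start (x axis), as a histogram over all 32851 starts of the table (top, y axis in starts) and as 1 point per start for the enzyme genes, the testis genes and the germline genes (bottom). The medians are 6 over all starts, 20 for the enzyme genes, 7 for the testis genes and 15 for the germline genes.

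The letters CACGTG, the E-box read by MAX and its partners on either strand, stood in 18 of the 35 germline starts (51.4%), against 6.02% of all starts. That of Slc25a31 was among the 18, and some genes, such as Hormad1, counted with more than 1 start. The list of 13 repressors that hold germline genes silent in somatic cells includes Mga, the partner of MAX in a noncanonical Polycomb complex. None of the 13 was called over 6 arrays. Without Pogz+/+ replicate 1, where 2.41% of all genes were called higher, Mga was higher. It measured 7.70, 7.77 and 8.17 in Pogz-/- livers, against 6.90, 7.18 and 6.73 in Pogz+/+ livers, and its difference was 0.94 over 6 arrays (adjusted p = 0.111) and 0.92 without that replicate (adjusted p = 0.0293). With averaged probe sets the difference of Mga over 6 arrays was 0.0040 (adjusted p = 0.997). Rnf2, the ubiquitin ligase of the same complex, differed by 0.64 (adjusted p = 0.163), but by -0.34 with averaged probe sets. The 13 genes had a median difference of 0.40, and of 0.21 without the replicate. The letters TCCCGC, part of the E2F site, stood on either strand in 6 of the 14 enzyme starts (42.9%) and in 16 of the 25 starts of S phase genes (64.0%), against 16.9% of all starts. Both runs of letters contain a CpG. The median number of CpG was 15 in germline starts, 20 in enzyme starts and 17 in S phase starts, against 6 over all starts. The shares are therefore not compared at like CpG content. A match is a run of letters and not a binding site.

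The genes whose levels over the 6 arrays were most like those of each enzyme were sought by Pearson correlation among genes at or above the median signal. They were Tagln2 for Dnmt1 (0.996), Fis1 for Dnmt3a (0.999), Rpl37a for Dnmt3b (0.998), Ric8b for Uhrf1 (0.998), Tet1 with Edc3 (0.987), Tet2 with Zfp292 (0.972), Tet3 with Ncapd3 (0.989) and Mbd4 with Rp2 (0.995). These values describe 6 arrays that share 1 array standing apart, and come from a search over 9096 or 9097 genes.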

How the data were processed

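RNA from whole E14.5 FL of 3 Pogz-/- and 3 Pogz+/+ embryos was labelled and hybridised to Affymetrix mouse expression arrays by the authors. The deposited values are linear signal intensities from Affymetrix Expression Console, scaled to 1 trimmed mean of 150 per array; its algorithm and version were not given in the sources used here. The intensities were taken to log2 with no pseudocount. Whether the embryos came from separate litters was not stated, so p-values measure the spread between these samples. The number of arrays limits the precision.

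Left out were 64 control probe sets; 932 probe sets naming several genes and 9160 unnamed ones entered only the fit over probe sets. Genes were named from the platform annotation, and promoter sequences from RefSeq. Differences were fitted by genotype on 6 arrays with limma 3.58.1 in R 4.3.3 (eBayes with trend and robust), two-sided, with Benjamini-Hochberg adjustment, called at 0.05. On simulated data over 18193 genes this fit recovered 0 of 67 genes changed 1.5-fold, 1 of 67 changed 2-fold and 26 of 66 changed 4-fold, with 1 false call. Without Pogz+/+ replicate 1 it recovered 0, 0 and 16, with 0 false calls. The simulated noise of a gene had the same spread on every array, with none standing apart. It therefore cannot say how leaving out that replicate acts on the measured data. Alternatives were other normalizations, a filter on dim probe sets, array weights, sex as covariate, a replicate block, each array left out, the methods' t-test, and means of probe sets.

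The members and lists were chosen with earlier results of these data known. Named are all members, of each list up to 4 genes with the largest moderated t, the 6 testis genes and, per member, the gene most like it. Ddx4 and Dazl were named after their values were seen.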

Additional observations from a re-analysis of the deposited data

How the results depend on the processing

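For the 8 enzyme genes 0 were called higher and 0 lower, and likewise for the 22 probe sets, except that leaving out Pogz+/+ replicate 1 with median centring called 2 genes and 1 probe set higher, and the methods' t-test without adjustment called 1 gene and 2 probe sets lower. Over the other lists, cell type markers not counted, 4 genes were called higher and 0 lower. The number higher was 0 with plain eBayes, with sex as covariate and with the methods' t-test, 1 with median centring and with means of probe sets, 2 with quantile normalization, 8 with array weights, 10 with the unadjusted t-test, 0 to 7 on leaving out 1 array, and 7 (quantile) or 20 (median centring) without Pogz+/+ replicate 1. The number lower was 5 with array weights, 8 with the unadjusted t-test, 0 to 7 on leaving out 1 array and 5 with quantile normalization without Pogz+/+ replicate 1. The cause was not tested.

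Some differences changed sign. Means of probe sets gave -0.65 for Tet1, -0.32 for Mbd4, -0.16 for Hells, 0.35 for Parp1, -0.34 for Rnf2, 0.085 for Rrm2 and -0.051 for Dazl, and moved erasers minus writers to -0.43. Tet2 was at -0.036 with quantile normalization and at -0.19 to 0.27 on leaving out 1 array. Median centring gave 0.0050 for Parp1 and 0.036 for Klf1, and 0.026 for Dnmt3b without Pogz+/+ replicate 1.

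Same-numbered arrays did not deviate together (correlations 0.0078, -0.0044 and -0.0050). With 3 arrays per genotype this cannot show whether the numbers pair the samples. With the replicate number as a block 0 enzyme genes and 4 genes of the other lists were called higher and 0 lower.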
